A study of Mus musculus with 18 samples.

Results

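Wild-type TRAMP prostate was followed between 10 and 30 weeks of age by RNA-seq of the ventral and lateral lobes. The comparison used 6 of the 18 samples in the series, 3 male mice at 10 weeks and 3 at 30 weeks. All 6 were of the strain the labels write as C56NL/6N and of genotype ELAC2+/+, TRAMP +/-, here called WT-TRAMP. Each thus carried the SV40 T antigens under the probasin promoter, which is active in prostate epithelium, together with normal Elac2. No mouse without the transgene was sequenced at either age in these 6 samples, so growth of the tumour and ageing cannot be told apart. The 6 samples were chosen by genotype and age alone, and no measured value was used for that choice.

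The ventral and lateral lobes of the mouse prostate are glands whose luminal cells, under androgen control, make a few secreted proteins in very large amounts. In TRAMP mice the T antigens bind the retinoblastoma proteins and p53 in these cells, and the epithelium passes with age from hyperplasia to carcinoma. Part of the tumours of this model lose androgen dependence and take on neuroendocrine features. Bulk RNA from such lobes also carries the smooth muscle, vessels, fat and immune cells around the glands.

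The 6 libraries, called by the numbers in the file headers, were 1, 2 and 3 at 10 weeks and 10, 11 and 12 at 30 weeks. Depth was 9380174 to 13094183 recovered reads. Between libraries of 10 weeks the correlation of log2 values across genes was 0.948 to 0.966. Library 11 resembled them most among the 30-week libraries, with r of 0.938 to 0.949, against 0.848 to 0.877 for library 10. Library 12 fell between its neighbours. Of 1042 genes whose share of reads differed at least 2-fold between libraries 10 and 11, library 12 lay between the pair for 993 (95.3%). Its median position was 0.43, with quartiles of 0.34 and 0.52, where 0 is library 11 and 1 is library 10. For the other libraries, placed in the same way between the pair of their own age, 11.7% to 79.7% of genes lay between. The files do not show whether library 12 was an independent sample, so main results are also given without it, singly or as a range over a group. The ages were deposited in separate tables, hence age and table cannot be told apart. The same libraries had other values in the second table of their age, and 30.9% to 37.6% of a library's values above 0 were identical. Among genes with at least 200 reads the SD of the log2 ratio was 0.0451 at 10 weeks and 0.0524 at 30 weeks. The ratio of a gene was nearly the same in the 3 libraries of an age (lowest r of 0.999 at each age). Its mean over them reached 0.330 at 10 weeks and 0.481 at 30 weeks in either direction. The spread between libraries does not hold such a shift.

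**Figure D1:**
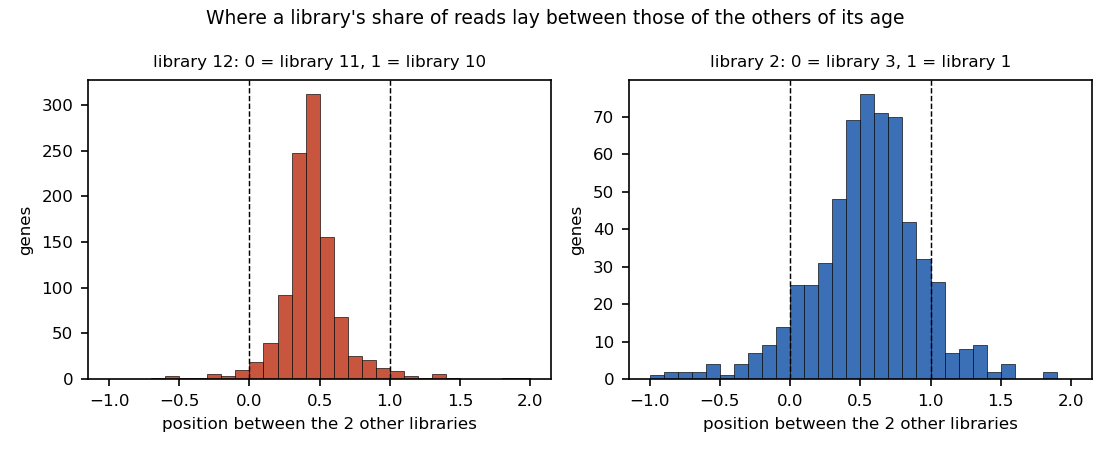
Histograms over genes of where library 12 fell between libraries 11 (at 0) and 10 (at 1), and, for comparison, where library 2 fell between libraries 3 and 1, with the position on the x axis and the number of genes on the y axis. Library 12 forms a narrow peak around a median of 0.43, whereas library 2 is spread more widely, with quartiles of 0.33 and 0.77.

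Between 10 and 30 weeks, 167 genes rose and 65 fell among 15928 genes tested with limma at an adjusted p under 0.05, which is 1.46% of genes in either direction, 1.05% higher and 0.408% lower. Of these 232 genes, 208 were protein coding and 170 changed more than 2-fold. The fold change of a gene is the difference of log2(normalized count + 1) between the ages, which understates the change of genes with few reads. In every one of the 232 genes the 3 libraries of 30 weeks lay all above or all below those of 10 weeks. Over all tested genes 13.4% lay wholly higher at 30 weeks and 14.0% wholly lower, and these shares are the background for the gene lists described here. The lists and their genes were chosen with earlier results of these data known. The calls depended on the test and on which libraries were fitted. In edgeR, a test on counts, 80 of the 232 genes passed too, and 25 of the 50 called genes named here. Those that did not pass in edgeR include Hoxb13, Myh11, Acta2, Ucp1, Jchain, Fn1, Igfbp3, Eda2r, Ptgdr and Col6a3. Their adjusted p-values in edgeR were 0.0512 to 0.0595. Leaving out library 1, 2, 10 or 12 left 27, 12, 25 and 2 genes called in that order, whereas leaving out library 3 gave 516 and library 11 gave 1159. With total reads in place of median-ratio size factors 287 genes were higher and 33 lower, 89.7% higher against 72.0%, and the median log2 difference of all genes moved from -0.004 to 0.126.

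Of 9 tested genes of prostate secretory proteins, 3 fell at 30 weeks, namely Sbp, Spink1 and Sbpl, against a background of 0.408%. Sbpl passed the filter on low values only through its level at 10 weeks and so had to differ. Spermine-binding protein, Sbp (ENSMUSG00000024128.13, chromosome 17, 23941672 to 23945607, plus strand, GRCm38), is the androgen-regulated protein that binds spermine in the ventral secretion. Its normalized counts were 251570, 295824 and 218626 in libraries 1, 2 and 3, and 14330, 14604 and 14889 in libraries 10, 11 and 12. The mean fell from 255340 ± 38737 (SD, n = 3) to 14608 ± 279.5 (SD, n = 3), 17.5-fold lower. All 3 libraries of 30 weeks stood at nearly the same low level, library 11 included. The log2 difference was -4.12 ± 0.14 (SE), with an adjusted p of 9.05e-05 in limma and 0.000556 in edgeR. Sbp still passed without library 12, at -4.13 and an adjusted p of 0.00569 in limma.

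Since Sbp carried the clearest change, its promoter sequences are shown with that of its neighbour Sbpl and that of Pbsn, the gene whose promoter drives the transgene. The windows run from 250 bases before to 50 after a RefSeq start (GRCm38.p6), 5′ to 3′ on the strand of the gene. Capitals mark AGAACA or its reverse complement TGTTCT, the half-site of the androgen response element, searched on both strands.
Sbp, first start in the gene, chr17:23941428-23941727, plus strand: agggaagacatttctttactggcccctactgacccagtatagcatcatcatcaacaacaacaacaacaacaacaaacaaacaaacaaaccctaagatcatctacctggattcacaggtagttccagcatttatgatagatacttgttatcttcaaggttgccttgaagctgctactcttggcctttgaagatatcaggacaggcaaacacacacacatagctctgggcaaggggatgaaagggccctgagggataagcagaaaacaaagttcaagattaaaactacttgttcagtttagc
Sbp, second start in the gene, chr17:23941668-23941967, plus strand: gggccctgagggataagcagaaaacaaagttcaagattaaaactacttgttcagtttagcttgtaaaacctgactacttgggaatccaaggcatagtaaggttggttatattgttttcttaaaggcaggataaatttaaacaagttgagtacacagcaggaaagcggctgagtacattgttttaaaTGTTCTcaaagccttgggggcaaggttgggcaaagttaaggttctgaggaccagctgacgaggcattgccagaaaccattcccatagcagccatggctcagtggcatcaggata
Sbpl, chr17:23955224-23955523, minus strand: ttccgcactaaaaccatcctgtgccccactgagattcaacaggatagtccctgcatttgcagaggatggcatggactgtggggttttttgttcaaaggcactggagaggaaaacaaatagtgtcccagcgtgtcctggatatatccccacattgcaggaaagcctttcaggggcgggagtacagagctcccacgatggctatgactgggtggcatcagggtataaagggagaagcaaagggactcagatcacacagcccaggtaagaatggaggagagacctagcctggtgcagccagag
Pbsn, chrX:77853451-77853750, minus strand: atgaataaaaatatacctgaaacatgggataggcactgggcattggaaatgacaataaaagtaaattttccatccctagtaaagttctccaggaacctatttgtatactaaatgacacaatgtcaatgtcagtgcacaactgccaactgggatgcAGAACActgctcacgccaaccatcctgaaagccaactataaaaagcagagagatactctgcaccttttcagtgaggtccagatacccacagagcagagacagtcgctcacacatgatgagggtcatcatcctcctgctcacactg
The second Sbp window held the half-site 64 bases before its start and the Pbsn window 95 bases before. The first Sbp window and the Sbpl window held none, nor did that of another RefSeq start upstream (chr17:23922301-23922600), which is not printed. Among 32851 RefSeq promoters of the same length 19.0% held at least 1, so a match of 6 bases is common and describes only these letters.

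Spink1, a trypsin inhibitor of the secretion (chromosome 18, 43728082 to 43737557, minus strand), had 28205, 29679 and 16284 normalized counts at 10 weeks and 1379, 2319 and 1925 at 30 weeks. Its mean fell 13.2-fold, from 24723 ± 7345 to 1874 ± 472.0 (SD, n = 3 each), with a log2 difference of -3.70 ± 0.27 (SE) and an adjusted p of 0.00676 in limma. The groups were widely apart, and without library 12 the difference was -3.74 with an adjusted p of 0.0540 in limma. Sbpl, a paralogue of Sbp, had 92.9, 91.6 and 67.5 normalized counts at 10 weeks and 10.1, 4.27 and 8.15 at 30 weeks. It fell by 3.37 ± 0.38 (SE) on the log2 scale, but 48.1% of its 31-base words also occur in Sbp, so its value is uncertain. Without library 12 its adjusted p was 0.147 in limma.

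The other members of the secretory list did not pass the test. Msmb, the microseminoprotein of prostate secretion, ranged from 141 to 6862 normalized counts among the 10-week libraries alone and from 3232 to 4784 at 30 weeks. Defb50, a prostate beta-defensin, spread in the same way, with 623, 2851 and 4463 at 10 weeks and 2714, 3978 and 3361 at 30 weeks. Library 1 was the lowest of all 6 in both genes. Azgp1, a zinc-binding glycoprotein, had a log2 difference of -0.31 ± 0.20 (SE) and an adjusted p of 0.395 in limma. Tgm4, the prostate transglutaminase that clots semen, had 303, 67.1 and 607 normalized counts at 10 weeks and 1358, 562 and 987 at 30 weeks, with an adjusted p of 0.190 in limma. Pbsn (chromosome X, 77837901 to 77853623, minus strand), the probasin gene, had 312, 408 and 567 normalized counts at 10 weeks, then 495, 114 and 318 at 30 weeks. Its groups overlapped, with a log2 difference of -0.66 ± 0.50 (SE) and an adjusted p of 0.484 in limma. Cuzd1 was at 0 in all 3 libraries of 10 weeks and at 191, 0.853 and 81.5 at 30 weeks, a mean at least 29-fold higher than a floor of 3 reads per library, with an adjusted p of 0.157 in limma. It passed the filter on low values only through its level at 30 weeks and so had to differ. Pnliprp1, with 0 to 17 reads, was too low to test. The secretory list took 2.54%, 2.92% and 2.19% of reads at 10 weeks and 0.247%, 0.276% and 0.266% at 30 weeks (exact permutation p = 0.1, two-sided, the smallest that 3 libraries against 3 can give). Without Sbp and Spink1 the other 8 members took 0.0310%, 0.0758% and 0.136% at 10 weeks and 0.0938%, 0.114% and 0.104% at 30 weeks, and the ages overlapped. In bulk RNA, fewer cells of a type and less RNA per cell cannot be told apart.

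**Figure D2:**
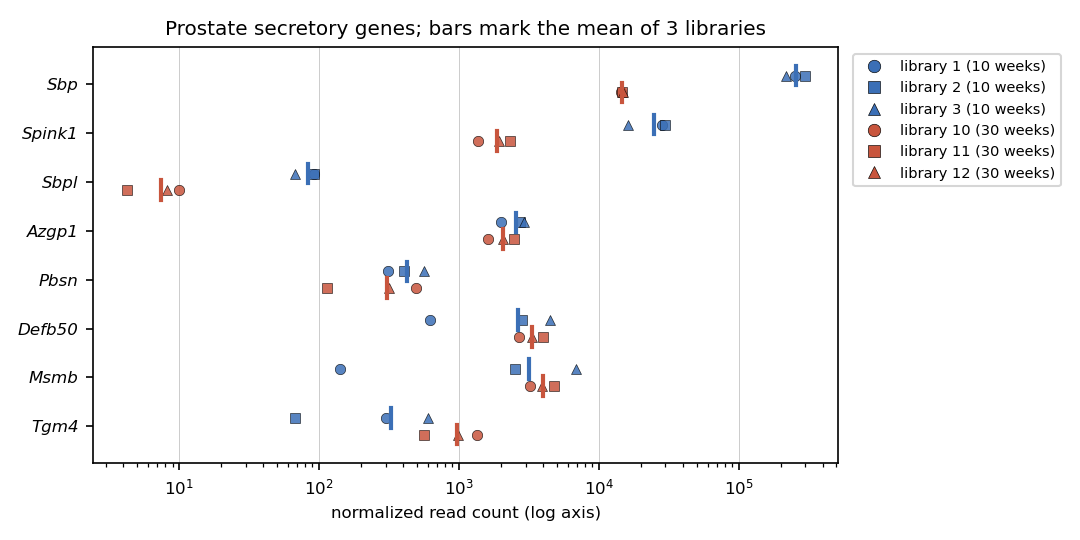
Normalized counts of 8 secretory genes in each library on a log axis, with points for libraries and bars for the mean of 3 libraries at each age. Sbp, Spink1 and Sbpl are separated between the ages, while the libraries of the other 5 genes overlap between the ages.

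Transcripts of the androgen axis held smaller differences. Hoxb13, the homeobox factor that marks prostate identity (chromosome 11, 96194316 to 96197447, plus strand), was the 1 gene of 12 tested in the androgen list that changed, against a background of 0.408% lower. It had 4624, 3943 and 3414 normalized counts at 10 weeks and 1913, 2345 and 2259 at 30 weeks, and fell by 0.87 ± 0.13 (SE) on the log2 scale with an adjusted p of 0.0402 in limma. Without library 12 it stood at -0.90 with an adjusted p of 0.197 in limma. Trpv6, an epithelial calcium channel, had 1095, 1279 and 528 normalized counts at 10 weeks and 402, 81.9 and 179 at 30 weeks (adjusted p = 0.0898, limma). Slc45a3, a luminal transporter, had a log2 difference of -0.57 ± 0.14 (SE) and an adjusted p of 0.0908 in limma. Of the 12 genes, 5 lay wholly lower and 1 wholly higher at 30 weeks, against 14.0% and 13.4% of all genes. The median log2 difference was -0.31, against -0.004 over all genes.

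Luminal keratins and junction genes showed small differences of 1 sign. All 13 tested had log2 differences under 0, with a median of -0.33, 7 lay wholly lower against 14.0% of all genes, and none passed the test. Under total reads the median was -0.20. Krt8, a luminal keratin, had 4435, 4580 and 4067 normalized counts at 10 weeks and 2652, 3368 and 3065 at 30 weeks, with a log2 difference of -0.53 ± 0.11 (SE) and an adjusted p of 0.0638 in limma, though 32.3% of its 31-base words occur in other genes. Krt18, its partner, and the adhesion genes Epcam, Cdh1 and Cldn3 had log2 differences of -0.33, -0.48, -0.28 and -0.43. Basal epithelial markers had a median of -0.41 with none of 8 called, but -0.18 without library 1 and -0.75 without library 3. Among them the basal keratin Krt5 had 219, 176 and 96.4 normalized counts at 10 weeks and 71.5, 49.5 and 71.3 at 30 weeks (adjusted p = 0.0922, limma). Krt15, also a basal keratin, lay wholly lower too, at -1.14 and an adjusted p of 0.146 in limma. Proximal luminal markers, by contrast, had a median of 0.01, and the stem cell antigen Psca had 24.7, 26.9 and 24.6 normalized counts at 10 weeks and 34.3, 164 and 110 at 30 weeks (adjusted p = 0.136, limma).

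Smooth muscle transcripts were higher at 30 weeks as a whole list. All 12 genes lay wholly above 10 weeks, against 13.4% of all genes, and 7 passed the test, against 1.05%. The median log2 difference was 1.53, and 1.51 without library 12. Myh11, the smooth muscle myosin heavy chain, had 1906, 3323 and 3150 normalized counts at 10 weeks and 12218, 6664 and 9229 at 30 weeks. It rose 3.36-fold, by 1.75 ± 0.27 (SE) on the log2 scale, with an adjusted p of 0.0421 in limma. Acta2, the smooth muscle actin, had 1064, 1631 and 1350 normalized counts at 10 weeks, then 4276, 2731 and 3401 at 30 weeks and rose by 1.36 ± 0.20 (SE). Library 10 was the highest and library 11 the lowest at 30 weeks in both genes, and library 11 was still above every 10-week library. The enteric actin gene Actg2 rose by 2.11, the actin-binding gene Tagln by 1.17 and the myosin kinase gene Mylk by 1.74 on the log2 scale, with adjusted p-values of 0.0341, 0.0267 and 0.0431 in limma. Synm, an intermediate filament gene, and Tpm2, a tropomyosin, rose by 2.19 and 1.53, and are named because they complete the genes called in this list. Without library 12 the adjusted p-values of these 7 genes were 0.173 to 0.209 in limma, with differences of 1.18 to 2.17. The list took 0.0544%, 0.0873% and 0.0779% of reads at 10 weeks and 0.313%, 0.174% and 0.237% at 30 weeks (exact permutation p = 0.1).

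Endothelial transcripts were also higher in nearly every member, without a call. Of 12 tested, 11 lay wholly above 10 weeks, against 13.4% of all genes, with a median log2 difference of 0.96. Of these 12, 1 passed the filter on low values only through its level at 30 weeks and so had to differ. Kdr, the main VEGF receptor gene, had 35.8, 36.6 and 20.4 normalized counts at 10 weeks and 81.6, 77.7 and 83.6 at 30 weeks, with an adjusted p of 0.0586 in limma. The vessel genes Pecam1, Flt1 and Vwf had log2 differences of 1.27, 1.38 and 1.58 and adjusted p-values of 0.0931, 0.0862 and 0.106 in limma. The list's share of reads was 0.00322%, 0.00341% and 0.00275% at 10 weeks and 0.00834%, 0.00629% and 0.00756% at 30 weeks (exact permutation p = 0.1).

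Matrix genes split by member. Of 34 tested, 3 rose and 1 fell, against 1.05% and 0.408% of all genes, and the median was 0.35. Wholly higher lay 11 and wholly lower 2, against 13.4% and 14.0% of all genes. Among the 34, 1 passed the filter on low values only through its level at 30 weeks. Postn, the periostin gene of activated stroma, had 72.4, 105 and 103 normalized counts at 10 weeks and 378, 292 and 271 at 30 weeks. It rose 3.36-fold, by 1.74 ± 0.20 (SE) on the log2 scale, with an adjusted p of 0.0239 in limma. Fn1, the fibronectin gene, rose by 1.27 ± 0.19 (SE), and Mmp2, a gelatinase gene chosen after its values were seen, rose by 1.00 ± 0.17 (SE). Col6a3, a collagen VI chain, went the other way, with 29163, 18778 and 7818 normalized counts at 10 weeks and 3618, 1635 and 2536 at 30 weeks. Its mean was 7.16-fold lower and its log2 difference -2.72 ± 0.48 (SE), with an adjusted p of 0.0484 in limma. The 10-week libraries of Col6a3 themselves spanned a wide range. Basement membrane genes had a median of 0.32 with none of 12 called, among them the laminin gene Lama4 at 1.27 (adjusted p = 0.0501, limma) and the perlecan gene Hspg2 at 0.45 (adjusted p = 0.0740, limma). In the insulin-like growth factor axis, 2 of 10 rose, the binding proteins Igfbp7 and Igfbp3, against 1.05% of all genes. They rose by 0.91 ± 0.14 and 1.36 ± 0.22 (SE) on the log2 scale with adjusted p-values of 0.0381 and 0.0428 in limma. Without library 12 the 6 genes called in these lists had adjusted p-values of 0.158 to 0.216 in limma. The mesenchymal regulators Zeb1 and Zeb2 lay wholly higher but were not called, at 0.60 and 1.64 with adjusted p-values of 0.0709 and 0.108 in limma.

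**Figure D3:**
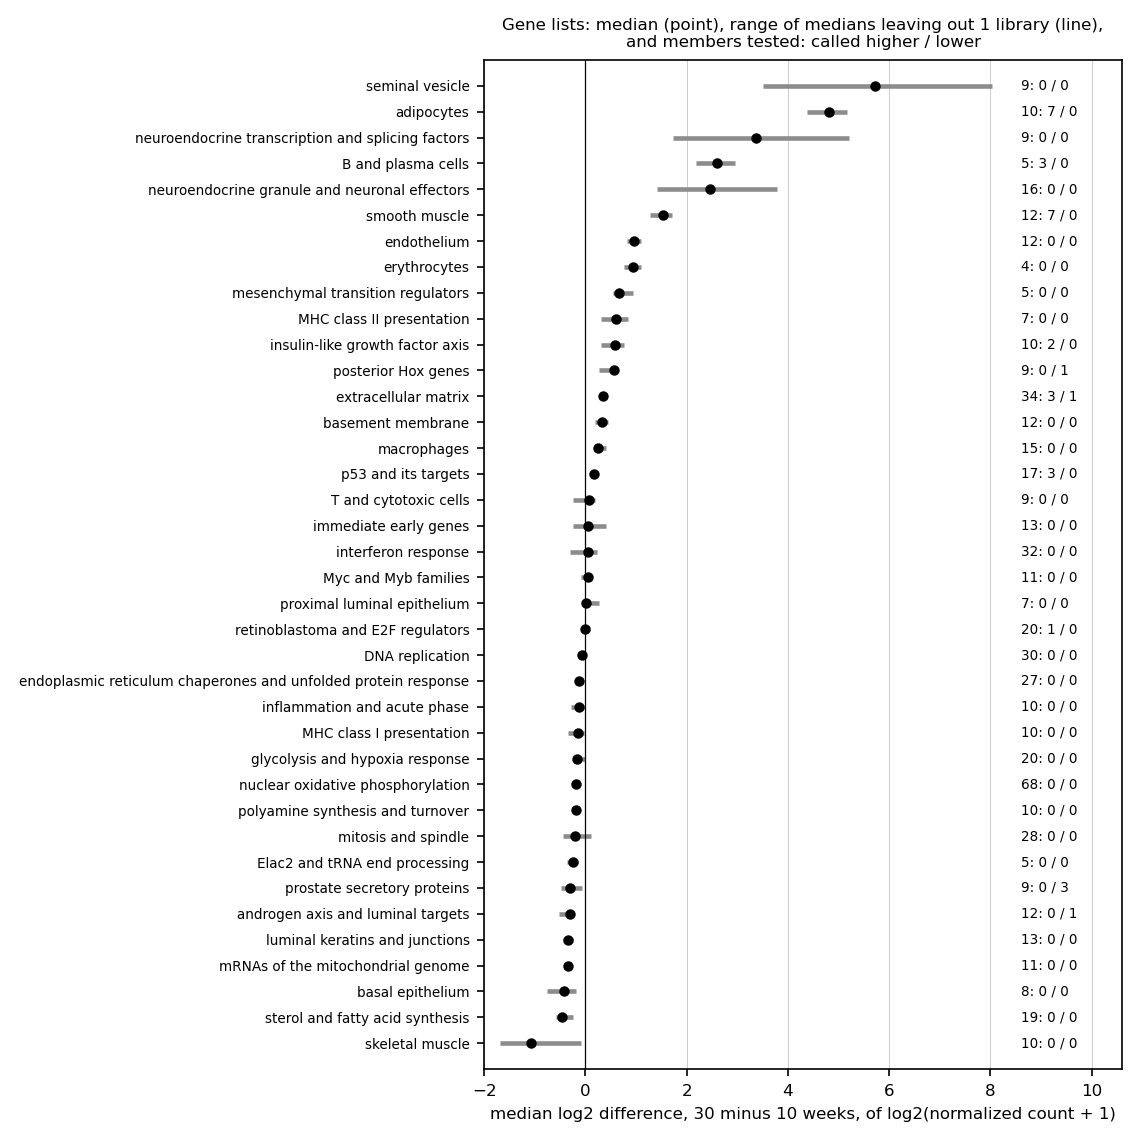
Median log2 difference between 30 and 10 weeks for 38 gene lists with at least 4 tested genes, as points, with lines for the range over fits that each left out 1 library. The text at each row gives how many genes were tested, how many rose and how many fell, and adipocyte and smooth muscle lists hold 7 genes that rose each. In the adipocyte list and each neuroendocrine list 6 tested genes passed the filter only through 30 weeks, and in the seminal vesicle list 8. In the skeletal muscle list 5 passed only through 10 weeks. Such genes had to differ.

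Of the fat cell markers, 7 rose, against 1.05% of all genes, and 6 of these 7 had at most 4.29 normalized counts in any library of 10 weeks. Of 12 listed genes 10 were tested and 8 lay wholly higher, against 13.4% of all genes, but 6 passed the filter on low values only through their level at 30 weeks and so had to differ. Ucp1, the uncoupling protein of brown fat (chromosome 8, 83290352 to 83298452, plus strand), was at 0 in every 10-week library and at 49.4, 230 and 145 normalized counts at 30 weeks, at least 45-fold higher than a floor of 3 reads per library. Cidec and Cidea, both lipid droplet genes, were likewise at 0 and then at least 23.3-fold and 10.7-fold higher. The adjusted p-values in limma were 0.0123 for Ucp1, 0.0110 for Cidec and 0.0431 for Cidea. Fabp4, the fatty acid carrier of fat cells, had 19.6, 31.7 and 26.8 normalized counts at 10 weeks and 203, 640 and 411 at 30 weeks. Its mean went from 26.0 ± 6.11 to 418 ± 219 (SD, n = 3 each), and it rose by 3.83 ± 0.41 (SE) on the log2 scale with an adjusted p of 0.0183 in limma. Adipoq, the adiponectin gene, had 0.852, 2.44 and 1.07 normalized counts at 10 weeks, then 29.2, 105 and 65.2 at 30 weeks, and Plin1, which coats the fat droplet, had 0, 0 and 1.07 and then 29.2, 98.1 and 75.4. Cfd, the adipsin gene, had 0, 3.66 and 4.29 and then 77.6, 115 and 94.8. Cidea, Adipoq, Plin1 and Cfd are named because they complete the genes called in this list. Within 30 weeks library 11 was the highest for each of these genes and library 10 the lowest, the reverse of the order seen for smooth muscle. Lpl, a lipase gene of fat and other tissues, stood at 1.52 with an adjusted p of 0.0501 in limma. Lipe, the hormone-sensitive lipase gene, was already at 200, 256 and 139 at 10 weeks and at 230, 300 and 255 at 30 weeks, and overlapped (adjusted p = 0.322, limma). Pparg, the fat cell receptor named to complete the list, overlapped too, at 11.9 to 18.3 and then 16.1 to 45.2. Without library 12 the 7 adjusted p-values were 0.172 to 0.268 in limma. The list took 0.00295%, 0.00368% and 0.00320% of reads at 10 weeks and 0.00959%, 0.0207% and 0.0151% at 30 weeks (exact permutation p = 0.1). The labels state that adipose tissue was removed at dissection, and the part of remaining fat in these values was not tested.

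In the immune lists, the genes that passed the test were 3 of 5 tested in the list of B and plasma cells, against a background of 1.05% higher. These were Ighm, Igkc and Jchain, and 7 of the 12 listed genes were too low to test. Ighm, the constant region of IgM (chromosome 12, 113418558 to 113422730, minus strand), had 38.3, 91.6 and 68.6 normalized counts at 10 weeks and 775, 895 and 810 at 30 weeks. It rose 12.5-fold, by 3.71 ± 0.29 (SE) on the log2 scale, with adjusted p-values of 0.00748 in limma and 0.0132 in edgeR. The 3 libraries of 30 weeks were alike, and without library 12 the difference was 3.72 with an adjusted p of 0.0778 in limma. Igkc, the kappa light chain, had 20.5, 70.8 and 19.3 normalized counts at 10 weeks, then 486, 409 and 500 at 30 weeks and rose by 3.88 ± 0.46 (SE). Jchain, which joins secreted IgM and IgA, had 11.1, 34.2 and 22.5 and then 110, 136 and 146, and rose by 2.60 ± 0.39 (SE). Igkc and Jchain had adjusted p-values of 0.0267 and 0.0381 in limma, and of 0.173 and 0.207 without library 12. Igha, the IgA constant region, had 23.0, 69.6 and 10.7 and then 62.5, 120 and 88.7, and overlapped (adjusted p = 0.179, limma). Cd22, a B cell surface gene named to complete the list, had 4.26, 26.9 and 3.22 and then 64.5, 7.68 and 14.3, and overlapped too (adjusted p = 0.496, limma). Ighg2c, an IgG heavy chain, had 0.852, 3.66 and 0 and then 311, 106 and 219 (adjusted p = 0.0147, limma). Among 9 tested immunoglobulin genes of any class, 8 lay wholly higher, against 13.4% of all genes. The 4 that rose, against 1.05%, were Ighm, Igkc, Ighg2c and the variable segment Igkv3-4. Ighg2c and Igkv3-4 are named for their calls. Both passed the filter on low values only through their level at 30 weeks and so had to differ. Igkv3-4 also shares 55.2% of its words with other segments. Other B cell genes were too low to test, such as Ms4a1 and Cd79a at 0 to 11 reads and the plasma cell gene Tnfrsf17 at 0 in all 6 libraries. The list of B and plasma cells took 0.000916%, 0.00260% and 0.00115% of reads at 10 weeks and 0.0151%, 0.0153% and 0.0153% at 30 weeks (exact permutation p = 0.1).

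Other immune lists held no call. Genes of MHC class II presentation had a median log2 difference of 0.60, with 3 of 7 wholly higher, against 13.4% of all genes. Among them the invariant chain Cd74 had 654, 741 and 432 normalized counts at 10 weeks and 874, 1067 and 1025 at 30 weeks (adjusted p = 0.110, limma). Their master regulator Ciita had 46.9, 31.7 and 24.6 and then 77.6, 70.0 and 97.8 (adjusted p = 0.0769, limma). Macrophage markers had a median of 0.26 with 5 of 15 wholly higher and 1 wholly lower, against 13.4% and 14.0% of all genes. The complement gene C1qa stood at 0.46 with an adjusted p of 0.167 in limma. Cd14, the marker that lay wholly lower, stood at -0.83 with an adjusted p of 0.120 in limma. The 32 interferon response genes had a median of 0.05, MHC class I genes -0.15, and T and cytotoxic cell genes 0.07, and groups overlapped for most members. The interferon-induced gene Rsad2 lay wholly lower, at -0.62 with an adjusted p of 0.175 in limma. Of 8 neutrophil genes only Csf3r was tested, with 4.29 to 17.9 normalized counts at 10 weeks and 9.17 to 16.2 at 30 weeks. The inflammation list, of which 10 genes were tested, had a median of -0.13, and 4 of the 10 had log2 differences above 0. Wholly higher lay 2 and wholly lower 2, against 13.4% and 14.0% of all genes. In this list the oncostatin receptor gene Osmr stood at 0.78 (adjusted p = 0.0721, limma). The prostaglandin synthase gene Ptgs2 was high in libraries 10 and 12 alone, at 991 and 481 normalized counts against 15.4 in library 11 and 5.97 to 25.6 at 10 weeks.

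**Figure D4:**
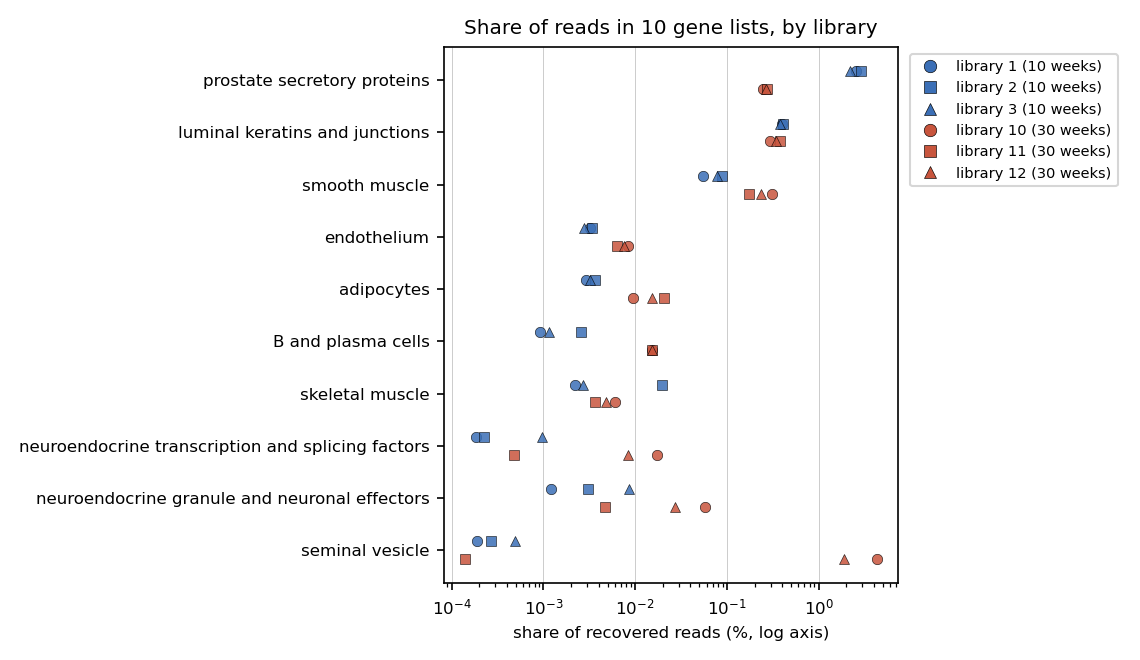
Percentage of all reads taken by 10 gene lists in each library, on a log axis, with 10-week and 30-week libraries marked apart. Seminal vesicle and neuroendocrine lists are high in libraries 10 and 12 but not 11, whereas secretory, smooth muscle, fat and B cell lists separate all 3 libraries of 30 weeks from those of 10 weeks.

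Neuroendocrine transcripts were high in 2 of 3 libraries at 30 weeks and near the 10-week level in library 11. None of 9 tested transcription and splicing factors was called. Of these 9, 6 passed the filter only through their level at 30 weeks and so had to differ. The share of reads of this list was 0.0174%, 0.000474% and 0.00827% in libraries 10, 11 and 12, against 0.000183% to 0.000956% at 10 weeks (exact permutation p = 0.2). Insm1, a zinc finger factor of neuroendocrine cells, was at 0 in library 11 and in all of 10 weeks, and at 182 and 101 normalized counts in libraries 10 and 12. Prox1, a homeobox factor, had 560, 4.27 and 238 at 30 weeks and 2.56 to 5.36 at 10 weeks. Elavl4, a neuronal RNA-binding protein, had 621, 0 and 284 at 30 weeks and 1.22 to 13.9 at 10 weeks. Onecut2 and Mycn, factors linked to this state in prostate cancer, had 59.4, 0.853 and 30.6, and 56.4, 0.853 and 35.7, at 30 weeks. At 10 weeks Mycn was at 0 in every library and Onecut2 reached 2.14 in library 3. Sox2, a stem cell factor, had 122, 30.7 and 75.4 against 12.2 to 25.7 at 10 weeks and lay wholly higher (adjusted p = 0.108, limma).

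Library 3 stood apart from its age in several of these genes. The splicing regulator Srrm4 had 35.4 normalized counts in library 3, above the 29.2, 11.1 and 19.4 of 30 weeks, and 0.852 and 2.44 in libraries 1 and 2. Celf3, also an RNA-binding protein of neurons, had 26.8 in library 3 against 2.56 and 2.44, with 84.6, 0.853 and 36.7 at 30 weeks. Neurod1 was at 0 in all libraries, and Foxa2 and Nkx2-2 had at most 6 reads. Of the granule and neuronal effectors, none of 16 tested was called. Among these, 6 passed the filter only through their level at 30 weeks and 1 only through 10 weeks, and so had to differ. The adhesion gene Ncam1 had 71.6, 175 and 297 normalized counts at 10 weeks and 1849, 288 and 997 at 30 weeks. The prohormone carboxypeptidase gene Cpe had 19.6, 47.6 and 221 and then 899, 144 and 442, so that library 3 was above library 11 in both. Syt1, a sensor of vesicle release, had 18.8, 29.3 and 80.4 and then 747, 14.5 and 284.

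The same 2 libraries of 30 weeks held seminal vesicle transcripts in large amounts. The list took 4.36% of reads in library 10, 1.90% in library 12 and 0.000139% in library 11, against 0.000191% to 0.000487% at 10 weeks. Of its 9 tested genes, 8 passed the filter only through their level at 30 weeks and so had to differ. Svs2, the main semenogelin-like protein of the vesicle (chromosome 2, 164235929 to 164238466, minus strand), had 259074, 1.71 and 114938 normalized counts in libraries 10, 11 and 12 and 1.22 to 8.57 at 10 weeks. Svs5 had 107500, 3.41 and 46385, Pate4 62107, 0.853 and 27431, and Svs4 16865, 2.56 and 7764. The other members followed the same order, with 456, 2.56 and 231 for Svs1, 623, 0 and 272 for Svs6, and 167, 3.41 and 62.2 for Ceacam10. Svs3a and Svs3b had 340 and 317 in library 10 and 0 in library 11, and share 52.0% and 51.2% of their 31-base words, so their split is uncertain. The labels state that the seminal vesicles were removed at dissection. Library 12 lay at 0.437 of the way from library 11 to library 10 for this list, at 0.461 for the neuroendocrine factors and at 0.449 for smooth muscle. Without both libraries, with library 11 alone against 10 weeks, the spread rested on 10 weeks only and the 1 gene called was 1700047I17Rik2. That gene, named for its call, was at 0 in library 11 and at 398 to 458 normalized counts in the other 5 libraries, and 100% of its 31-base words occur in other genes, so its value is uncertain. The median of the smooth muscle list in library 11 alone was 1.08. The part of seminal vesicle tissue in any other difference was not tested.

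Proliferation genes were expressed at both ages, and none passed the test. Of 28 mitosis and spindle genes none lay wholly higher or lower, against 13.4% and 14.0% of all genes. Their median log2 difference was -0.21 and ran from -0.44 to 0.12 when single libraries were left out. Mki67, the proliferation marker, had 5711, 4463 and 4236 normalized counts at 10 weeks and 6244, 2926 and 4334 at 30 weeks. Top2a, the mitotic topoisomerase, had 3228, 2611 and 1961 and then 3158, 1281 and 2072, and Cenpf, a kinetochore gene, had 1783, 1240 and 1077 and then 2401, 727 and 1568. In all 3 genes library 10 was the highest and library 11 the lowest at 30 weeks, and the range of 30 weeks spanned nearly all of that of 10 weeks. DNA replication genes had a median of -0.06 with none of 30 called, and the flap endonuclease gene Fen1 stood lowest in p at -0.59 ± 0.13 (SE) and 0.0702 in limma after adjustment.

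The cell cycle inhibitor genes Cdkn2a and Cdkn1a rose. Cdkn2a (chromosome 4, 89274471 to 89294653, minus strand) encodes an inhibitor of the retinoblastoma kinases and an activator of p53. It had 73.3, 51.3 and 31.1 normalized counts at 10 weeks and 201, 250 and 214 at 30 weeks. Its mean rose 4.27-fold, from 51.9 ± 21.1 to 221 ± 25.6 (SD, n = 3 each), a log2 difference of 2.15 ± 0.30 (SE) with adjusted p-values of 0.0341 in limma and 0.0492 in edgeR. Without library 12 it was 2.17 with an adjusted p of 0.180 in limma. It was the only gene of 20 in the list of retinoblastoma and E2F regulators that changed, against 1.46% of all genes. Cdkn2c, a related inhibitor, stood at 0.59 with an adjusted p of 0.0958 in limma. Of 17 tested genes of p53 and its targets 3 rose, against a background of 1.05%, and the list's median was 0.17. Cdkn1a, the p21 inhibitor, named because it was called in this list, had 16.2, 19.5 and 28.9 normalized counts at 10 weeks, then 115, 72.5 and 82.5 at 30 weeks, and rose by 2.02 ± 0.31 (SE). Eda2r, a death receptor gene, had 25.6, 34.2 and 27.9 and then 121, 75.1 and 125, and rose by 1.81 ± 0.27 (SE). Trp53inp1, a nuclear stress protein, had 382, 420 and 365 and then 728, 642 and 621, and rose by 0.77 ± 0.11 (SE) with an adjusted p of 0.0341 in limma. Without library 12 the adjusted p-values of these 3 genes were 0.173 to 0.207 in limma. Myb, a factor of cycling progenitors, had 1244, 1094 and 589 normalized counts at 10 weeks, then 381, 323 and 353 at 30 weeks, with a log2 difference of -1.40 ± 0.26 (SE) and an adjusted p of 0.0536 in limma.

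**Figure D5:**
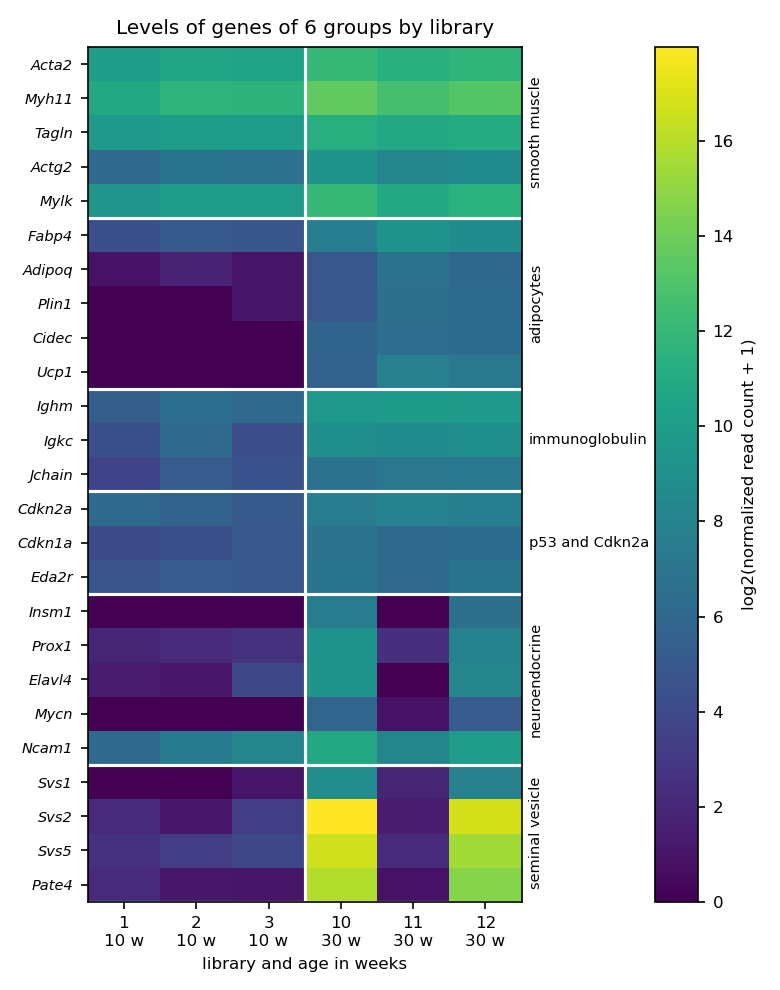
Log2(normalized count + 1) of 25 genes in 6 groups, with 1 column per library and colour for the level. Each of the antibody genes is at a like level in all 3 libraries of 30 weeks, whereas seminal vesicle genes and the neuroendocrine genes Insm1, Prox1, Elavl4 and Mycn are high in libraries 10 and 12 only.

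Metabolic lists held small differences and no call. Of 68 nuclear genes of oxidative phosphorylation, 31 lay wholly lower at 30 weeks, against 14.0% of all genes, and 5 had log2 differences above 0. The median was -0.18, but -0.05 under total reads, so its size depends on the scaling. The ATP synthase gene Atp5g3 had 968, 823 and 733 normalized counts at 10 weeks and 595, 582 and 560 at 30 weeks, with a log2 difference of -0.53 and an adjusted p of 0.0736 in limma. Uqcr10, of the cytochrome bc1 complex, stood at -0.50 with an adjusted p of 0.0709 in limma, and the synthase genes Atp5b and Atp5a1 stood at -0.21 and -0.16. Among mRNAs of the mitochondrial genome all 11 features had differences under 0, with a median of -0.34, and -0.21 under total reads. Of these mt-Co1, a cytochrome oxidase subunit, had 78617, 82075 and 66934 normalized counts at 10 weeks, then 57160, 61595 and 57760 at 30 weeks, wholly lower (adjusted p = 0.159, limma). Of 10 polyamine genes 5 lay wholly lower, against 14.0% of all genes. The median of this list was -0.19, and -0.06 under total reads. Amd1, the decarboxylase gene that supplies spermine synthesis, stood at -0.77 with an adjusted p of 0.0717 in limma, but 82.8% of its 31-base words occur in other genes. Odc1, the first enzyme of the pathway, stood at -0.16 with 31.3% of its words shared. Sterol and fatty acid synthesis genes had a median of -0.47, and -0.23 without library 1, with Fdft1, the squalene synthase gene, at -0.70 (adjusted p = 0.0913, limma) and the desaturase gene Scd2 at -0.52. The elongase gene Elovl6 went the other way, with 26.4, 23.2 and 30.0 at 10 weeks and 255, 51.2 and 118 at 30 weeks (adjusted p = 0.0927, limma). Chaperones and the unfolded protein response had a median of -0.12, which was 0.01 under total reads.

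Several of these groups held the largest changes. Among called genes with a mean of at least 100 and no overlap between the ages, immunoglobulins and clone names apart, the rise was largest for Pck1, the gluconeogenic enzyme also used by fat cells, at 0.852, 0 and 1.07 normalized counts at 10 weeks and 75.6, 364 and 221 at 30 weeks (adjusted p = 0.0122, limma). Pck1 passed the filter on low values only through its level at 30 weeks and so had to differ. Car3, a carbonic anhydrase of fat and muscle, had 3.41, 30.5 and 15.0 and then 234, 439 and 338, and like Pck1 was highest in library 11. Serpine2, a protease inhibitor also made in the seminal vesicle, had 34.1, 40.3 and 78.2 and then 3298, 518 and 1873, in the order of the seminal vesicle genes. Its log2 difference was 4.92 ± 0.65 (SE) with an adjusted p of 0.0294 in limma, and 3.42 for library 11 alone. Enpp2, the autotaxin gene, rose by 3.68, Pcp4, a calmodulin regulator, by 3.36, Mal, a membrane raft protein, by 3.16 and Acacb, an acetyl-CoA carboxylase, by 2.93 on the log2 scale. Pcp4 shares 19.9% of its 31-base words with Igsf5. Mal had 276, 268 and 293 at 30 weeks, an even level, against 11.1, 41.5 and 58.9 at 10 weeks. Marcksl1 and Arl4c, regulators of the cell cortex, rose by 2.82 each. Without library 12 the adjusted p-values of these genes were 0.103 to 0.223 in limma.

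Among genes that fell, Ptgdr, a prostaglandin D receptor gene, had 915, 534 and 65.4 normalized counts at 10 weeks and 9.07, 3.41 and 5.10 at 30 weeks (adjusted p = 0.0433, limma). Its log2 difference was -5.62 ± 0.91 (SE), but Ptgdr passed the filter on low values only through its level at 10 weeks and so had to differ. Mat2a, which makes S-adenosylmethionine, had 15120, 11947 and 7553 and then 3245, 3054 and 3091, 3.69-fold lower with a log2 difference of -1.82 ± 0.23 (SE) and an adjusted p of 0.0267 in limma. In Ptgdr, Mat2a and Col6a3 alike library 1 was the highest and library 3 the lowest of 10 weeks, while 30 weeks lay below all of them. Crabp1, a retinoic acid carrier, had 2079, 1317 and 719 and then 373, 244 and 261, and Wfdc3, a protease inhibitor of the whey acidic family, 200, 426 and 592 and then 90.7, 39.3 and 62.2. Tacr3, the neurokinin B receptor gene, fell by 1.85 ± 0.27 (SE), the antisense transcript Rapgef4os3 fell by 3.11 ± 0.46 (SE), and H2-Q10, a secreted class I molecule that shares 30.3% of its words with others, fell by 1.64 ± 0.23 (SE). Without library 12 the adjusted p-values of these genes and Col6a3 were 0.173 to 0.209 in limma. In that fit only Sbp and Gm26444 passed in limma, and 2140 genes had an unadjusted p under 0.05. Gm26444, named for that reason, is a small nuclear RNA gene at 95.4, 121 and 95.4 normalized counts at 10 weeks and 0 in all of 30 weeks. It passed the filter on low values only through its level at 10 weeks and so had to differ. Moreover, 100% of its 31-base words occur in other genes, so its value is uncertain.

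Elac2, the tRNA 3′ end nuclease altered in the other lines of the series (chromosome 11, 64979038 to 65002069, plus strand), had 350, 282 and 299 normalized counts at 10 weeks and 226, 284 and 277 at 30 weeks. Its groups overlapped, with means of 310 ± 35.5 and 262 ± 31.9 (SD, n = 3 each), an exact permutation p of 0.2 and an adjusted p of 0.362 in limma. Its log2 difference was -0.24 ± 0.14 (SE). Elac1, its short paralogue, stood at -0.29 with an adjusted p of 0.234 in limma. Hsd17b10, a subunit of the mitochondrial tRNA 5′ end nuclease, had 510, 507 and 502 and then 352, 421 and 325, wholly lower but not called (adjusted p = 0.0932, limma). None of the 5 tested genes of tRNA end processing was called.

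Of 10 tested skeletal muscle genes none was called, and 5 passed the filter only through their level at 10 weeks and so had to differ. Their median was -1.07, and -0.08 without library 2. The fast myosin gene Myh4, which shares 30.4% of its 31-base words with other genes, reached 846 normalized counts in library 2 alone, against 0 and 50.4 in libraries 1 and 3 and at most 1.71 at 30 weeks. Posterior Hox genes, which pattern the lower body, had a median of 0.57. Of 9 tested only Hoxb13 was called, against 0.408% of all genes called lower, while Hoxa13 stood at -0.73 with an adjusted p of 0.102 in limma. Of 4 tested erythrocyte genes 3 lay wholly higher, against 13.4% of all genes, and none was called. Of these 3, Hba-a1 passed the filter only through its level at 30 weeks and so had to differ. The remaining tested gene, Alas2, which makes heme in red cell precursors, lay wholly lower, with 49.4, 45.2 and 55.7 and then 31.2, 32.4 and 21.4 (adjusted p = 0.147, limma). Glycolysis genes had a median of -0.16, immediate early genes 0.06 and the Myc and Myb families 0.05, with none called.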

How the data were processed

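RNA was extracted from 6 WT-TRAMP prostates, 3 per age, and sequenced as total RNA. The authors trimmed reads with Trim Galore 0.4.1 and cutadapt 1.18, aligned with STAR 2.7.3a, quantified with Salmon and scaled with DESeq2 1.26. They deposited normalized counts, a signal made by dividing each library's Salmon estimates by that library's size factor. All values (100%, tolerance 0.001) were whole multiples of 1 step per column, so whole numbers of estimated reads were recovered, here called reads. The 12 columns of mutant lines were not used. The deposited comparison tables (base mean, shrunken log2 fold change, posterior SD, s-value) were not used either. WT-TRAMP columns are those that both tables of an age share, and the headers give no replicate number.

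The 6 libraries were scaled together by median-ratio size factors. Genes with a mean of at least 10 were tested with limma 3.58.1 under R 4.3.3 (lmFit and a trended eBayes, log2(value + 1)), and two-sided p-values adjusted by Benjamini-Hochberg passed under 0.05. Count tests on the recovered reads called 80 genes with edgeR 4.0.16 and 1475 with DESeq2 1.42.0. The scripts were tested on simulated data. Other scalings, filters, pseudocounts, tests and left-out libraries were tried.

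The 41 gene lists and the genes in them were chosen with earlier results of these data known. Lists are described by counts and medians. Genes were named by rule: Elac2 and Pbsn, up to 10 per direction with the largest change (mean of at least 100, no overlap between ages, no clone or immunoglobulin name), the 3 highest and the 2 of smallest p per list, and all members of 4 lists (prostate secretory proteins, neuroendocrine factors, seminal vesicle, tRNA end processing). Not every gene that the rule selects is printed, and some are not reported here. Others are said to be chosen from their calls. Of 55469 gene IDs 55107 had a symbol. Mitochondrial genes that overlap count as 1 feature. Coordinates are GRCm38, and promoters are from RefSeq GRCm38.p6. The labels call the samples separate mice but do not tie a column to a mouse, so p-values measure the spread between these libraries.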

Additional observations from a re-analysis of the deposited data

How the results depend on the processing

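The 232 genes changed (167 higher, 65 lower) became 80 (62 and 18) with edgeR, 1475 (948 and 527) with DESeq2, 3140 (1789 and 1351) with array weights, and 1 (0 and 1) without both libraries that hold seminal vesicle transcripts. With total reads 287 were higher and 33 lower. With 1 library left out the count ran from 2 to 1159, from 0 to 914 higher and from 2 to 245 lower. TMM factors, other filters and pseudocounts and the second tables kept the total within 1.5 times. The cause of these differences was not tested. No paired analysis was possible because the column headers carry no replicate number.

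The direction turned for genes that were not called. Without library 1, Msmb was -0.08 (range over left-out libraries -0.08 to 2.71) and Defb50 -0.11 (-0.11 to 1.31). Without library 11, Mki67 was 0.13 (-0.42 to 0.13), Top2a 0.01 (-0.64 to 0.01) and 1700047I17Rik2 0.05 (-4.36 to 0.05). Cenpf was -0.09, -0.32 and -0.02 without libraries 3, 10 and 12 (-0.32 to 0.54). Without both seminal vesicle libraries, Cenpf was -0.88, Syt1 -1.24 and Svs4 -2.04. All 232 called genes kept their sign in every fit with 1 library left out. List medians moved beyond the replicate spread for 8 of 41 lists under total reads and for 14 of 41 without both seminal vesicle libraries. With 3 libraries per age, an exact permutation test cannot go under 0.1.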
